A study of Mus musculus with 22 samples.

Results

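The 10 genes described here mark blood and the vessel wall in hypothalamus libraries, and all 10 were found by symbol among 41456 gene entries, 1 entry each. Red cells are represented by 5 of them: the alpha globins Hba-a1 and Hba-a2, the beta globins Hbb-bs and Hbb-bt, and Alas2, the enzyme that starts haem synthesis in red cell precursors. The other 5 mark brain endothelium: the tight junction protein Cldn5, the adhesion molecule Pecam1 (CD31), the receptors Flt1 and Kdr for vascular endothelial growth factor (VEGF), and the transporter Slco1a4. The members are found by symbol, with no threshold on a measured value, but the set was put together with earlier results of these data known. All 10 passed the filter on low counts, among 21346 genes tested.

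Circulating red cells keep no nucleus but carry leftover globin mRNA, so globin reads in a brain sample are usually taken as blood held in its vessels, although some neurons and glia also make globin. Brain endothelial cells are joined by tight junctions and hold many transporters, which together form the blood-brain barrier. VEGF acts on them mainly through Kdr, while Flt1 binds VEGF strongly and signals weakly, and it also has a soluble form that captures the ligand.

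The study sequenced polyadenylated RNA from the hypothalamus of C57BL/6J mice of 2 genotypes. PWScrm+/p− mutant mice lack Snord116 on the paternal chromosome, and PWScrm+/p+ mice served as controls. Tissue was taken at lights-on (ZT0), at ZT6, or at ZT6 when mice had been kept awake for the 6 h before (sleep deprivation, SD). For either genotype 3 libraries belong to ZT0, 4 to ZT6 and 4 to SD. The labels give no age or sex and do not say whether mice were pooled, so p-values measure the spread between these samples, which may be technical. Each sample title carries an index number, and the numbers fall into 3 runs: 1 to 4 (set 1), 5 to 18 (set 2) and 43 to 46 (set 3). The labels do not say what these runs stand for.

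Neural transcripts were scarce in 4 libraries: all 3 of mutant ZT0 and replicate 3 of mutant ZT6. There the summed level of 7 genes of transmitter neurons was 1.60 to 4.97 CPM (counts as a share of the library total, times 1e+06), against 1975 to 3501 CPM in the 17 libraries used below. Their summed meninges and fibroblast list was 7781 to 23050 CPM, against 297 to 2464 CPM. Mutant ZT6 replicate 2 held only 7348 counts. The 17 remaining libraries held 14609454 to 46965594 counts each, and comparisons use them unless stated: 3 control ZT0, 4 control ZT6, 4 control SD, 2 mutant ZT6 and 4 mutant SD. Summed counts of 17 Snord116 entries were above 0 in 8 of 11 control libraries and in 0 of 11 mutant libraries. The controls at 0 were ZT0 replicate 3, ZT6 replicate 4 and SD replicate 4. Control SD replicates 1 and 2 held only 1 and 2 counts, and 1561 of the 1899 control counts came from ZT6 replicate 2. Only 6 of the 11 mutant libraries are among the 17, and the rest hold few neural transcripts or few counts. The host transcript Snhg14 overlapped between genotypes, at 174 to 2039 CPM in controls and 199 to 372 CPM in the 6 mutants of the 17. Both controls of set 3 are thus at 0 for Snord116, with Snhg14 at 231 CPM (ZT6 replicate 4) and 174 CPM (SD replicate 4), within or below the mutant range, so these transcripts do not separate the genotype labels in set 3.

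The globin genes come as near-identical pairs, which bears on how far the levels of single copies can be read. Hba-a1 (chr11:32283511-32284465, plus strand) and Hba-a2 (chr11:32296489-32297298, plus strand) differ at 1 of 429 coding bases. Hbb-bs (chr7:103826534-103828096, minus strand) and Hbb-bt (chr7:103812524-103813996, minus strand) differ at 1 of 444. The windows printed next, from GENCODE M21 transcripts (GRCm38), are coding bases 357 to 405 of the alpha pair and 393 to 441 of the beta pair, counted from the start codon, with the only difference of each pair in capitals (C381T and C417T, the first gene's base first).
Hba-a1: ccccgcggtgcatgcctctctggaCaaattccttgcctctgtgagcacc
Hba-a2: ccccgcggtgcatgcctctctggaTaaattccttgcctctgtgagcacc
Hbb-bs: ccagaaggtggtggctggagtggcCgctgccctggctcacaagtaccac
Hbb-bt: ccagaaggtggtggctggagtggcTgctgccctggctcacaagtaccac
Of the 31-base words in the Hba-a2 transcript, 91% also occur in Hba-a1. The share was 71.3% for Hba-a1 in Hba-a2, 66.9% for Hbb-bs in Hbb-bt and 59.4% for Hbb-bt in Hbb-bs. Reads from the shared stretches were split between copies by estimation, so sums per pair are firmer than the level of a single copy.

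RefSeq promoter sequence (GRCm38.p6) was at hand for 9 of the 10 members. The alpha pair shares its promoter as well: shifted by 3 bases, the windows from 250 bases before to 50 after the start matched at 297 of 297 positions. The search covered 5 motifs on both strands of the 250 bases upstream: TATAA (the TATA box), CCAAT (bound by NF-Y), CACCC (bound by Klf1 in red cells), GATAA (bound by Gata1 in red cells) and GGAAG (bound by ETS factors, which act in endothelium). GATAA was in the windows of 5 of 5 red cell genes and 0 of 4 endothelial genes, against 22.6% of all 32851 windows. TATAA was in 5 of 5 and 1 of 4, against 22.8%. CCAAT was in 4 of 5 and 2 of 4 (33.8% of all), CACCC in 5 of 5 and 4 of 4 (52% of all), and GGAAG in 3 of 5 and 3 of 4 (64.1% of all). These matches describe the letters only. Upstream is counted from the RefSeq start, and by GENCODE M21 coordinates the windows of Hba-a1, Hbb-bs, Hbb-bt and Alas2 reach into the gene itself. The Hba-a1 window, for example, is chr11:32283422-32283671, while that gene model starts at 32283511. Only windows almost wholly outside the gene model were considered for printing. Among them Hba-a2, Flt1 and Slco1a4 are printed because these genes followed different patterns across the libraries. Capitals mark motif matches, TTATAA counts as TATAA on both strands, and CCAAT and GGAAG overlap once in Slco1a4. The stretches are chr11:32296242-32296488 (plus strand), chr5:147726012-147726261 (minus strand) and chr6:141856221-141856470 (minus strand).
Hba-a2: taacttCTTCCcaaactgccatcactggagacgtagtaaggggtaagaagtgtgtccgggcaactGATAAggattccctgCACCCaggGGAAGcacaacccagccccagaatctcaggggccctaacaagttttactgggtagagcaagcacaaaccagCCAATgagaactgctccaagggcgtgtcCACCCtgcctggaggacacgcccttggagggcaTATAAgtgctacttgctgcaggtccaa
Flt1: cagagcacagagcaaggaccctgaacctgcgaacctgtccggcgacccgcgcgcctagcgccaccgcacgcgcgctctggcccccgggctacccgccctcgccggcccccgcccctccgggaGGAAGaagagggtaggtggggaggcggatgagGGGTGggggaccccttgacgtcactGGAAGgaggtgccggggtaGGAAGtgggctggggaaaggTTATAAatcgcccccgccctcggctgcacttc
Slco1a4: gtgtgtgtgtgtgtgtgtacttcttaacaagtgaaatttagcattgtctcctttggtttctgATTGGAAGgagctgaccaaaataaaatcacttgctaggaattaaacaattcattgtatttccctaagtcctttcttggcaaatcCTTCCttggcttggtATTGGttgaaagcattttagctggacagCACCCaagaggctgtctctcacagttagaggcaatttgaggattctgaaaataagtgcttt

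Haemoglobin mRNA varied severalfold between libraries of the same group. The 4 globin genes together took 242 to 1819 CPM in the 17 libraries (median 454 CPM), which is 0.0242% to 0.182% of all counts and a 7.52-fold range. The lowest library was control SD replicate 3 and the highest mutant SD replicate 4. In the plot of stacked globin levels, 3 of the 4 highest libraries belong to set 3.

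**Figure D1:**
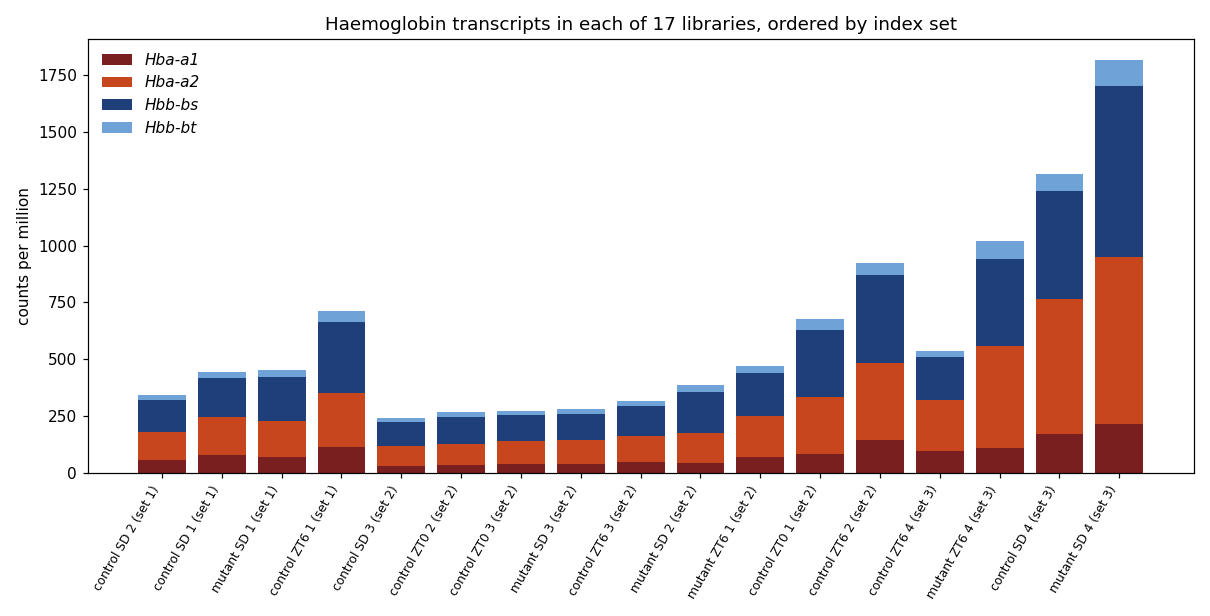
Summed CPM of the 4 globin genes in each of the 17 libraries (bars, stacked by gene, no error as each bar is 1 library), ordered by index set and then by level. Set 3 spans 537 to 1819 CPM and set 2 spans 242 to 923 CPM.

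Per kilobase of mRNA, using the longest coding transcript of each gene, the medians over the 17 libraries placed the globins first: Hba-a2 at 304 CPM per kb (157 to 1328), Hbb-bs at 301 (170 to 1194), Hba-a1 at 101 (44.3 to 309) and Hbb-bt at 40.2 (25.2 to 167). Neighbours in this order overlapped in range. Below a gap came Cldn5 at 11.9 CPM per kb (6.18 to 20.7), Slco1a4 at 5.88 (3.95 to 13.1), Flt1 at 4.81 (2.87 to 9.30), Pecam1 at 3.62 (2.16 to 12.9), Alas2 at 3.06 (1.31 to 10.3) and Kdr at 1.53 (0.860 to 2.70), again with overlapping neighbours. Alas2 (chrX:150547375-150570638, plus strand) overlaps Apex2 on the opposite strand by gene span. Whether their exons overlap was not checked, and no source used here says whether counting used strand. Whether the low Alas2 level holds reads of that neighbour is therefore not known.

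The alpha and beta globins kept a nearly fixed proportion. The ratio of summed alpha to summed beta CPM was 1.09 ± 0.171 (SD, n = 17), from 0.838 to 1.49, while their levels ranged over several-fold. Across the 17 libraries the log2 CPM of the summed alpha and summed beta genes correlated at Pearson r = 0.97 and Spearman rho = 0.97, and r was 0.96 without the 2 libraries farthest from the median. Within set 2 (9 libraries) r was 0.98. These values share library and depth and are given as a description. Hbb-bs exceeded Hbb-bt 4.82 to 7.53 times and Hba-a2 exceeded Hba-a1 2.04 to 4.21 times in CPM, not per length. The Hba-a2 to Hba-a1 ratio lay at 2.04 to 2.24 in set 1, 2.35 to 3.12 in set 2 and 2.39 to 4.21 in set 3, so set 1 did not overlap the others.

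At ZT0 the control libraries held 80.9, 34.01 and 39.4 CPM of Hba-a1 and 253, 91.99 and 99.1 CPM of Hba-a2 (replicates 1, 2 and 3). At ZT6 the control levels were 115, 144, 45.9 and 94.8 CPM for Hba-a1 and 235, 337, 115 and 227 CPM for Hba-a2 (replicates 1 to 4). After SD they were 77.1, 56.6, 30.95 and 173 CPM for Hba-a1 and 169, 121, 86.7 and 594 CPM for Hba-a2. All 3 control groups overlapped for both genes. Mutant ZT6 replicates 1 and 4 held 67.9 and 107 CPM of Hba-a1 and 182 and 452 CPM of Hba-a2. Mutant SD replicates held 70.8, 43.3, 38.6 and 216 CPM of Hba-a1 and 159, 134, 104 and 736 CPM of Hba-a2. In both SD groups the set 3 library, replicate 4, stood above the other 3.

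The beta globins gave the same picture. Hbb-bs was at 293, 119 and 116 CPM in control ZT0, at 312, 390, 132 and 189 CPM in control ZT6, and at 169, 143, 107 and 475 CPM in control SD. In mutants it was at 190 and 381 CPM at ZT6 and at 193, 178, 117 and 750 CPM after SD. Hbb-bt, the minor copy, was at 49.1, 21.9 and 19.4 CPM in control ZT0, at 51.6, 51.9, 20.97 and 26.4 CPM in control ZT6 and at 27.4, 23.3, 17.7 and 72.6 CPM in control SD. Its mutant levels were 28.3 and 79.02 CPM at ZT6 and 31.8, 33.2, 20.5 and 117 CPM after SD. Replicate 4 was again the highest of each SD group for both genes.

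Alas2 was far lower, at 8.85, 4.10 and 6.43 CPM in control ZT0, at 8.41, 4.95, 9.33 and 6.50 CPM in control ZT6 and at 4.31, 3.74, 2.67 and 9.98 CPM in control SD. The mutant libraries held 3.89 and 11.9 CPM at ZT6 and 6.24, 4.82, 2.85 and 21.1 CPM after SD. Alas2 counts per 1000 globin counts ran from 5.36 (control ZT6 replicate 2) to 29.7 (control ZT6 replicate 3), so Alas2 followed the globins less tightly than they followed each other. On the log2 CPM scale its correlation with summed globin was r = 0.77 over 17 libraries, 0.61 without the 2 farthest, and 0.36 within set 2. Other red cell genes, named after their values were seen, ranged widely in level. Bpgm was at 51.1 to 100 CPM, Slc25a37 at 12.6 to 31.5 CPM and Fech at 0 to 26.4 CPM in the 17 libraries. Genes more restricted to red cells were low: Slc4a1, the anion exchanger of the red cell membrane, reached at most 1.06 CPM in the 17 libraries, the theta-like globin Hbq1a ran from 0.352 to 1.74 CPM, and Hemgn reached 1.93 CPM.

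Among endothelial genes, Cldn5 (chr16:18776847-18778262, plus strand, 1 exon) was at 17.02, 19.9 and 18.5 CPM in control ZT0, at 16.1, 23.9, 12.2 and 21.97 CPM in control ZT6 and at 17.5, 12.6, 9.35 and 29.4 CPM in control SD. Mutants held 11.4 and 18.4 CPM at ZT6 and 11.4, 8.74, 13.7 and 16.8 CPM after SD. Pecam1 (chr11:106654217-106750628, minus strand) was at 12.7, 17.1 and 16.2 CPM in control ZT0, at 12.4, 19.9, 20.3 and 17.9 CPM in control ZT6 and at 10.1, 12.1, 12.4 and 44.3 CPM in control SD. Its mutant levels were 8.72 and 12.5 CPM at ZT6 and 12.2, 7.44, 12.1 and 39.9 CPM after SD. For Pecam1, replicate 4 of each SD group stood far above the other 3.

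Flt1 (chr5:147561604-147726011, minus strand), the VEGF receptor that binds tightly and signals weakly, was at 29.98, 43.7 and 38.1 CPM in control ZT0, at 28.8, 23.4, 46.1 and 64.1 CPM in control ZT6 and at 29.8, 33.8, 27.8 and 51.98 CPM in control SD. In mutants it was at 23.3 and 44.7 CPM at ZT6 and at 33.1, 19.8, 30.4 and 53.1 CPM after SD. Kdr (chr5:75932827-75978458, minus strand), the main signalling receptor, was at 7.60, 12.1 and 10.1 CPM in control ZT0, at 11.5, 6.03, 9.15 and 12.5 CPM in control ZT6 and at 7.52, 10.7, 5.10 and 9.06 CPM in control SD. Mutant libraries held 5.30 and 8.77 CPM at ZT6 and 15.99, 7.30, 6.80 and 9.82 CPM after SD. All groups overlapped for both receptors. Flt1 exceeded Kdr 2.07 to 5.74 times in CPM. The ratio was 5.10 to 5.74 in set 3, 2.71 to 5.45 in set 2 and 2.07 to 3.96 in set 1.

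Slco1a4 (chr6:141805440-141856199, minus strand), an organic anion transporter of the blood-brain barrier, had its highest group mean in control ZT0. Control ZT0 libraries held 34.01, 45.9 and 42.5 CPM. Control ZT6 libraries held 24.9, 19.8, 49.96 and 24.3 CPM, so replicate 3 reached the ZT0 range and the other 3 lay below it. After SD the controls held 26.1, 22.1, 21.2 and 15.1 CPM, mutant ZT6 libraries 24.03 and 22.5 CPM, and mutant SD libraries 18, 19.3, 22.1 and 16.95 CPM. Both SD groups and mutant ZT6 lay below all 3 control ZT0 libraries. All control ZT0 libraries belong to set 2, whereas those groups also hold set 3 libraries, so group and index set are mixed over the 17 libraries. The set 2 libraries of those groups alone also lay below control ZT0. They were control SD replicate 3 (21.2 CPM), mutant SD replicates 2 and 3 (19.3 and 22.1 CPM) and mutant ZT6 replicate 1 (24.03 CPM). This separation was not tested, and the share of all genes that show it was not counted.

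**Figure D2:**
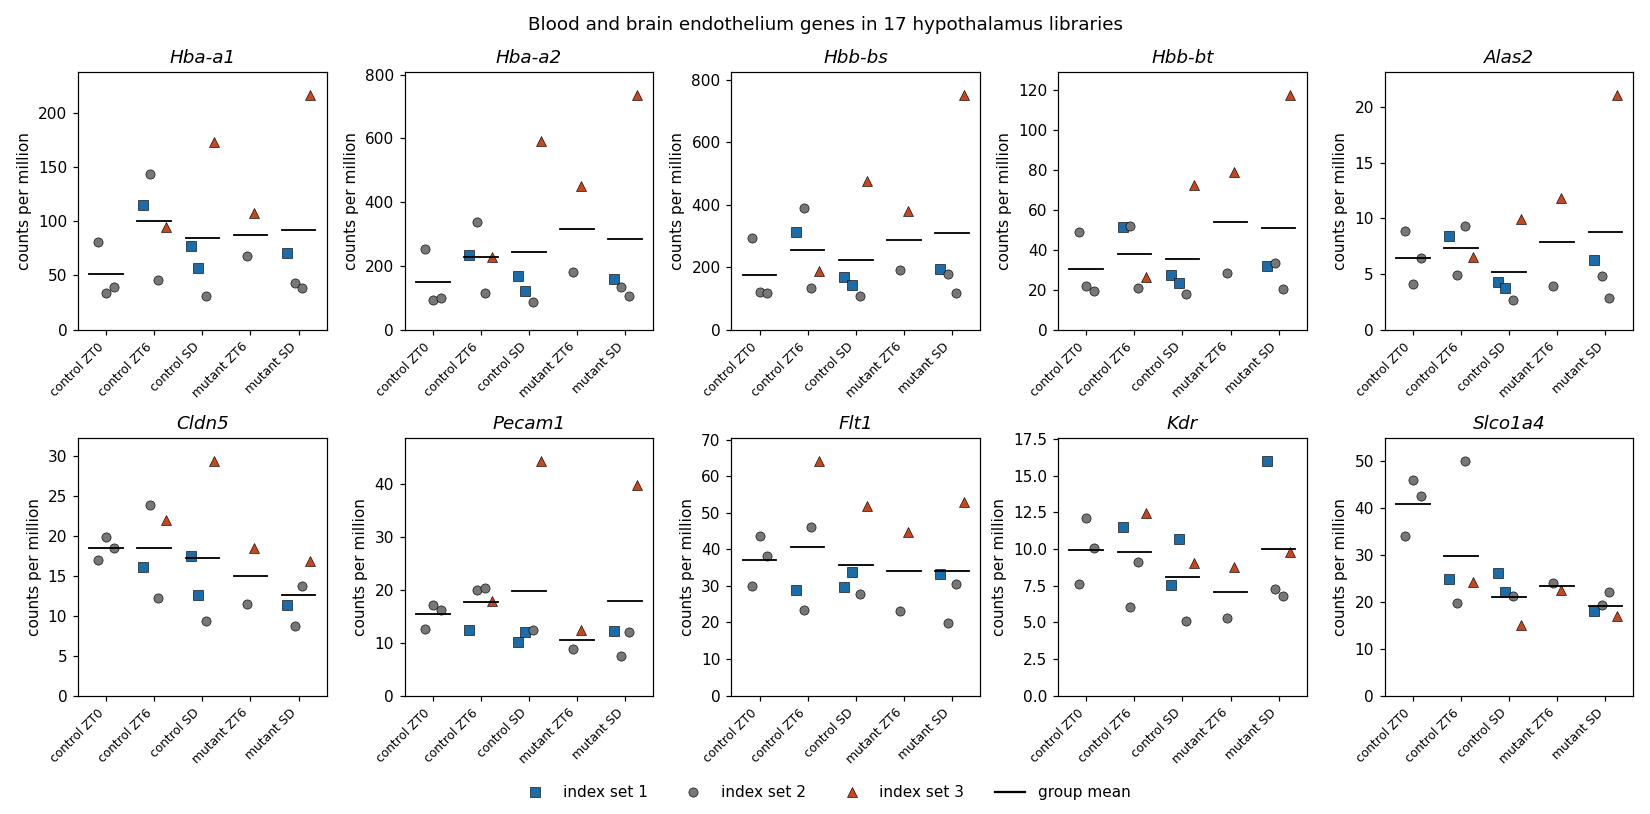
Level of each member in CPM (y axes from 0, scaled per gene) in the 17 libraries by group; each point is 1 library, its shape and colour give the index set, and lines are group means. Replicate 4 of both SD groups (set 3 triangles) lies highest of its group for the 4 globins, Alas2, Cldn5, Pecam1 and Flt1, while Slco1a4 has no high triangle and is highest in control ZT0 and 1 control ZT6 library.

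The design asks first what sleep deprivation and time of day do. Neither comparison moved a member past the test. With edgeR's quasi-likelihood test over all genes, 0 of 10 members and 0% of 21346 genes passed an adjusted p of 0.05 for SD against ZT6 in controls, although 1318 genes lay under an unadjusted p of 0.05, and 18 were called with DESeq2. Member log2 fold changes ran from -0.47 to 0.20, with a median of -0.17 against -0.02 over all genes. Slco1a4 had the smallest p: 21.1 ± 4.56 CPM after SD (SD, n = 4) against 29.7 ± 13.7 CPM at ZT6 (SD, n = 4), a log2 fold change of -0.47 ± 0.23 (SE, unadjusted p = 0.0524 in the edgeR fit, adjusted p = 0.815). It was -0.14 without control ZT6 replicate 3.

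In mutants, SD against ZT6 called 0% of genes and 0 members, with 461 genes at an unadjusted p under 0.05 and 16 called by DESeq2. Slco1a4 was at 19.1 ± 2.24 CPM after SD (SD, n = 4) and 23.3 ± 1.099 CPM at ZT6 (SD, n = 2), and did not pass (log2 fold change -0.39 ± 0.27, edgeR adjusted p = 1). The test of the difference between genotypes in the SD effect also called 0% of genes and 0 members (530 genes at an unadjusted p under 0.05, 8 by DESeq2). For Slco1a4 that difference was 0.08 (95% interval -0.68 to 0.84) and for Kdr, the member with the smallest p, 0.62 (-0.43 to 1.66).

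Time of day alone, ZT6 against ZT0 in controls, called 0% of genes and 0 members (694 at an unadjusted p under 0.05, 23 by DESeq2). The point estimates of 9 members were above 0, with a median of 0.23 against 0.09 over all genes, and none passed the test. Hba-a1 had the largest, 1.05 ± 0.67 (SE, edgeR adjusted p = 0.96), from 51.4 ± 25.6 CPM (SD, n = 3) to 99.9 ± 41.2 CPM (SD, n = 4). Slco1a4 alone was below 0, at -0.44 ± 0.24 (SE, adjusted p = 0.96). This comparison and that of SD in controls share the control ZT6 libraries. Control ZT0 libraries all lie in set 2, and within that set the Slco1a4 difference was -0.23 and that of summed globin 0.61.

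Sleep deprivation against ZT6 went opposite ways for the globins in different index sets. In controls the log2 difference of summed globin was -0.86 in set 1 (393 CPM after SD, 713 CPM at ZT6), -1.35 in set 2 (242 and 619 CPM) and 1.29 in set 3 (1313 and 537 CPM). In mutants it was -0.49 in set 2 (334 and 468 CPM) and 0.84 in set 3 (1819 and 1019 CPM). Each side of these differences is 1 or 2 libraries, and they were not tested. Slco1a4 differed by -0.05, -0.72 and -0.69 in controls and by -0.21 and -0.41 in mutants. The -0.72 of set 2 rests on control ZT6 replicate 3 (49.96 CPM): the SD library there (21.2 CPM) was above the other ZT6 library (19.8 CPM). Kdr was lower in 3 of 3 sets in controls (-0.33, -0.57 and -0.46) and higher in 2 of 2 in mutants (0.41 and 0.16).

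**Figure D3:**
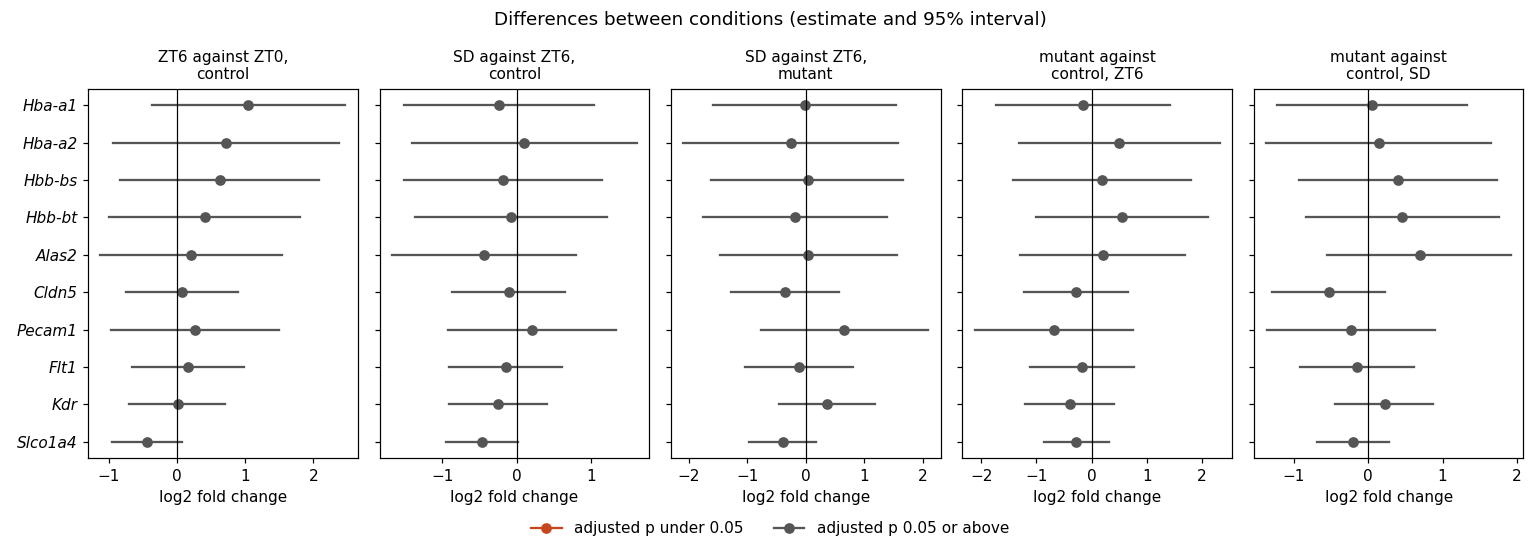
Fitted log2 fold change (points) with 95% interval (lines) of each member in the 5 comparisons between conditions that have replicates in the 17 libraries; positive means higher in the first group named. Every interval includes 0, and none of the 50 estimates is drawn as called.

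The second question was whether loss of Snord116 changes these genes. At ZT6, mutant against control called 0% of genes and 0 members (566 at an unadjusted p under 0.05, 15 by DESeq2). All 5 endothelial members had estimates below 0, from -0.69 for Pecam1 to -0.18 for Flt1, and 3 of 4 globins had estimates above 0. Pecam1 was at 10.6 ± 2.65 CPM in mutants (SD, n = 2) and 17.6 ± 3.62 CPM in controls (SD, n = 4), with an interval from -2.12 to 0.74. The endothelial signs held in both index sets that have both genotypes: Flt1 differed by -0.58 in set 2 and -0.52 in set 3, Kdr by -0.52 and -0.51, Cldn5 by -0.66 and -0.25, Pecam1 by -1.20 and -0.52, and Slco1a4 by -0.54 and -0.11. These within-set values have 1 mutant library each and were not tested, and in set 3 the control is 1 of the 2 without Snord116 counts.

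Other vessel lists at ZT6 were mixed, and none of their genes was called. Of 20 further endothelial genes, 2 had estimates above 0 (median -0.35). Of 14 pericyte and smooth muscle genes, 0 were above 0 (median -0.49), and of 18 blood-brain barrier genes 9 were (median -0.04), while the median over all genes was -0.06. The fenestrated and venous list had 3 of 7 above 0 (median -0.21) and the VEGF and angiopoietin list 3 of 10 (median -0.17). Other cell types differed in the same comparison: 1 of 9 meninges and fibroblast genes was above 0 (median -0.68), against 7 of 7 genes of transmitter neurons (median 0.30) and 7 of 9 myelin genes (median 0.24). Their part in the vessel values was not tested. After SD the endothelial, pericyte and barrier lists had 9 of 20, 6 of 14 and 7 of 18 above 0 (medians -0.06, -0.08 and -0.09, all genes -0.02).

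After SD, mutant against control called 0% of genes and 0 members (631 at an unadjusted p under 0.05, 1 by DESeq2). Cldn5 had the smallest p among members, at 12.7 ± 3.44 CPM in mutants and 17.2 ± 8.77 CPM in controls (SD, n = 4 each), a log2 fold change of -0.53 ± 0.36 (SE, edgeR adjusted p = 0.999). Within sets it was -0.41, 0.26 and -0.80. All 5 red cell members had estimates above 0, from 0.05 for Hba-a1 to 0.69 ± 0.58 for Alas2, and none passed. Within sets 1, 2 and 3 summed globin differed by 0.21, 0.47 and 0.47 and Alas2 by 0.63, 0.52 and 1.08, again not tested, and the set 3 control is the other of the 2 without Snord116 counts. Intervals for the globins in this comparison reached from -1.37 to 1.75 on the log2 scale, so changes of about that size in either direction cannot be told from none with these libraries. In bulk RNA, fewer cells of a type and less RNA per cell cannot be told apart.

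Members were called between index sets. With group in the model, set 3 against set 2 gave 9 of 10 members higher and 0 lower, where 22.4% of all genes were called, 12.7% higher and 9.73% lower. The globins were higher by 1.47 to 1.83 on the log2 scale: Hba-a1 1.5 ± 0.44, Hba-a2 1.83 ± 0.46, Hbb-bs 1.47 ± 0.46 and Hbb-bt 1.5 ± 0.44 (SE, edgeR adjusted p = 0.0239, 0.0119, 0.0353 and 0.0241). Alas2 was higher by 1.63 ± 0.35 (adjusted p = 0.0051), Flt1 by 1.01 ± 0.17 (0.00083), Pecam1 by 1.19 ± 0.30 (0.0123), Kdr by 0.74 ± 0.18 (0.00882) and Cldn5 by 0.77 ± 0.25 (0.041). Slco1a4 did not pass, at -0.32 ± 0.20 (adjusted p = 0.266). The median over members was 1.33, against -0.02 over all genes.

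**Figure D4:**
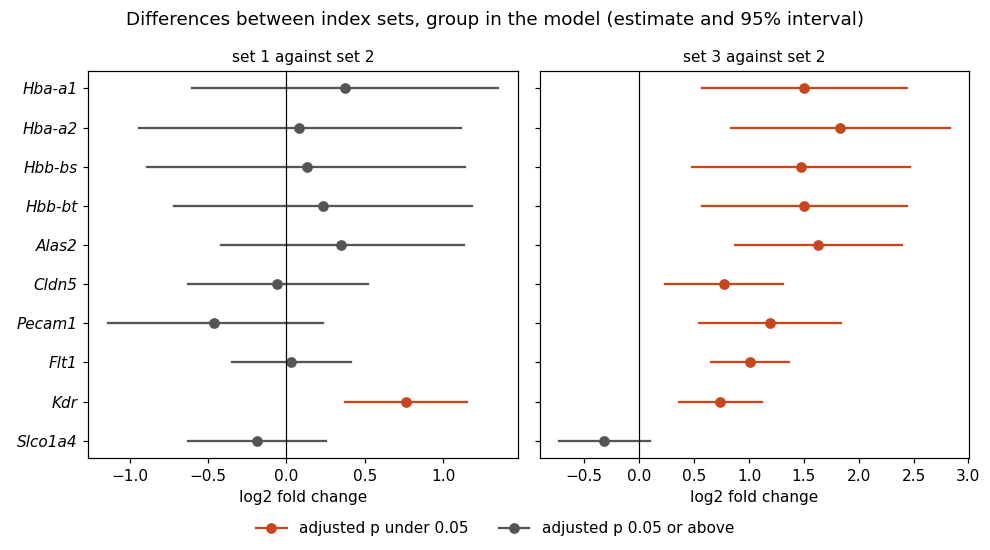
Fitted log2 difference (points) with 95% interval (lines) between index sets, with group in the model, for the 10 members; red marks an adjusted p under 0.05. In set 3 against set 2 all members but Slco1a4 are red and above 0, and in set 1 against set 2 only Kdr is.

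Within single groups the difference was uneven for blood and even for the VEGF receptors. Summed globin in the set 3 library, against the mean of the set 2 libraries of its group, ran from 0.868 times (control ZT6) to 5.44 times (mutant SD), and was higher in 3 of 4 groups. Flt1 was higher in 4 of 4 groups, by 1.84 to 2.12 times, and Kdr in 4 of 4, by 1.39 to 1.78 times. Slco1a4 was lower in 4 of 4, at 0.697 to 0.935 times. In CPM, 0 of 10 members had all set 3 libraries above all set 2 libraries, a separation that 6.68% of all genes showed. The 4 set 3 libraries were shallower, at 14609454 to 28383930 counts, than the set 1 libraries, at 33436549 to 46965594, and set 2 ran from 16073520 to 34162946.

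Most of these calls rested on few libraries. Without mutant SD replicate 4, 2 of the 10 members were called, and globin estimates were 1.01 to 1.44. Without control SD replicate 4, 4 members were called, and without control SD replicate 3, 5 were. Cldn5 lost its call in 10 of 13 fits that left out 1 library (adjusted p = 0.163 without control SD replicate 4) and Pecam1 in 2 of 13, those without control SD replicate 4 (0.0597) or mutant SD replicate 4 (0.0845). Among the red cell members, Hbb-bs lost its call in 7 of 13, Hbb-bt in 6, Hba-a1 in 5, and Hba-a2 and Alas2 in 1 each. Mutant SD replicate 4 also held 1127 CPM of a pituitary list (growth hormone, prolactin and other hormone genes), against 37.99 to 41.3 CPM in the other 3 set 3 libraries and 16.02 to 34.7 CPM in set 2. It was not the highest: in set 1, mutant SD replicate 1 held 23329 CPM of that list, with summed globin at 454 CPM. Control ZT6 replicate 1, also of set 1, held 722 CPM of the list, with summed globin at 713 CPM. Leaving out the 3 libraries with at least 500 CPM of that list, an alternative added after seeing the data, left Flt1 and Kdr called. The part of pituitary tissue in the globin levels was not tested.

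In the wider lists, the shares called with set 3 stand beside 12.7% higher and 9.73% lower over all genes, and for the red cell, general endothelial and VEGF lists they were near that background. Among 10 further red cell genes tested, 1 was higher, Bpgm (0.61 ± 0.13, adjusted p = 0.00502), which makes the haemoglobin regulator bisphosphoglycerate, and 1 was lower, the mitochondrial iron importer Slc25a37 (-0.37 ± 0.11, adjusted p = 0.0248). The platelet and white blood cell lists had 0 of 6 and 0 of 8 genes called. Of 20 general endothelial genes 3 were higher: the junction cadherin Cdh5 (1.14 ± 0.31), the receptor Tie1 (0.89 ± 0.20) and the TGF-beta co-receptor Eng (0.70 ± 0.18). Of 18 blood-brain barrier genes 5 were higher and 2 lower, among them the transcription factor Foxq1 (1.38 ± 0.26), the junction protein Cgn (0.91 ± 0.14) and the glucose transporter Slc2a1 (0.82 ± 0.12) higher and the transferrin receptor Tfrc (-0.85 ± 0.17) lower. Among 14 pericyte and smooth muscle genes 6 were higher, led by the intermediate filament Des (2.11 ± 0.40), Tagln (1.65 ± 0.28) and Acta2 (1.03 ± 0.26), contractile genes of smooth muscle. Among 10 VEGF and angiopoietin genes 1 was higher, the ligand Vegfa (0.49 ± 0.13, adjusted p = 0.0153). Beside them, 2 of 9 meninges and fibroblast genes were higher, Col3a1 (2.55 ± 0.58) and Dcn (1.24 ± 0.35); that list summed to 475 to 1793 CPM in set 3 and 297 to 2464 CPM in set 2. Its part in the vessel genes was not tested.

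Set 1 against set 2 called 1 vessel member and 0 blood members. Kdr was higher by 0.76 ± 0.18 (SE, edgeR adjusted p = 0.0122), where 18.3% of all genes were called, 10.9% higher and 7.43% lower. Its level was 15.99, 7.52, 10.7 and 11.5 CPM in mutant SD 1, control SD 1, control SD 2 and control ZT6 1, against 5.10 to 12.1 CPM in set 2. The Kdr call was lost without mutant SD replicate 1 (0.55, adjusted p = 0.111), without control SD replicate 3 (0.70, adjusted p = 0.0556) and without the 3 libraries with pituitary transcripts (0.66, adjusted p = 0.292). The globins differed by 0.08 to 0.37 with adjusted p of 0.618 or more. In the general endothelial list 4 of 20 genes were higher (Eng 1.33 ± 0.20, Cdh5 1.21 ± 0.32, Tie1 0.84 ± 0.21 and Esam 0.55 ± 0.17) and 0 lower. Of 10 further red cell genes 2 were higher, Slc4a1 (3.07 ± 0.95, at most 1.06 CPM in any of the 17 libraries) and Fech (2.83 ± 0.86), the enzyme that completes haem. These list calls come from the fit of 17 libraries, where 3907 genes were called. Without the 3 libraries with pituitary transcripts, which include mutant SD replicate 1 and control ZT6 replicate 1 of set 1, only 2 genes were called. Fewer libraries enter that fit.

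The relation of Slco1a4 to the VEGF receptors was close within set 2. In the 9 libraries of set 2 the log2 CPM of Slco1a4 correlated with Flt1 at r = 0.91 (rho = 0.87) and with Kdr at r = 0.83 (rho = 0.70), whereas over all 17 libraries r was 0.13 for each. Pecam1 and Flt1 correlated at 0.71 over 17 libraries and 0.70 within set 2. Summed globin and Pecam1 had r = 0.57 over 17 libraries and 0.02 without the 2 farthest libraries, so that relation rested on those 2; within set 2 it was 0.04. Globin and Slco1a4 had r = -0.54, and -0.32 within set 2. All are descriptions over libraries that share depth and set.

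The 5 genes whose level followed summed globin most closely over the 17 libraries, by Spearman correlation among 16725 genes, were Psme1 (0.875), Mrps23 (0.868, 2 entries with the same values), Ucma (0.865) and Gfap (0.858), none of which is a red cell gene. Psme1 encodes a proteasome activator subunit and ran from 40.4 to 124 CPM, and Gfap, the astrocyte filament protein, ran from 158 to 636 CPM. For the mean log2 CPM of the 5 endothelial members the closest were Gm13415 (0.868), Ovgp1 (0.863), the matrix protein Tnc (0.848), Gm26584 (0.843) and Gm16754 (0.841). These 5 are not on the lists of vessel genes. Within set 2 (9 libraries) rho with summed globin was 0.92 for Psme1, 0.68 for Mrps23, 0.85 for Ucma and 0.75 for Gfap. With the endothelial mean it was 0.83, 0.90, 0.78, 0.92 and 0.83 for the genes in the order named. All were picked as the highest of 16725 correlations over 17 libraries that also differ in set. High values can arise by such picking alone, and none was tested.

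In the 4 libraries with few neural transcripts the blood genes were close to absent while the VEGF receptors were not. Summed globin was 0.156 to 0.452 CPM in these 4, against at least 242 CPM in the 17. Hbb-bt had 0 counts in all 4, and Hba-a1, Hba-a2 and Hbb-bs had 0 in 2, 2 and 1 of them. Alas2 was at 0.646, 0 and 1.60 CPM in replicates 1, 2 and 3 of mutant ZT0 and at 0.169 CPM in replicate 3 of mutant ZT6. In the same order, Cldn5 was at 0.129, 0, 0 and 0 CPM and Slco1a4 at 1.94, 0.249, 0 and 0.0563 CPM, all below the lowest of the 17 libraries (8.74 and 15.1 CPM). Pecam1 was at 7.88, 1.77, 3.21 and 2.03 CPM, so replicate 1 reached the low end of the 17 (7.44 CPM). Flt1 was at 51.9, 110, 46.5 and 46.6 CPM and Kdr at 5.68, 14.6, 3.85 and 6.47 CPM, with mutant ZT0 replicate 2 above all 17 libraries for Flt1 (64.1 CPM at most). Flt1 exceeded Kdr 7.20 to 12.1 times in these 4, above the 2.07 to 5.74 times of the 17.

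**Figure D5:**
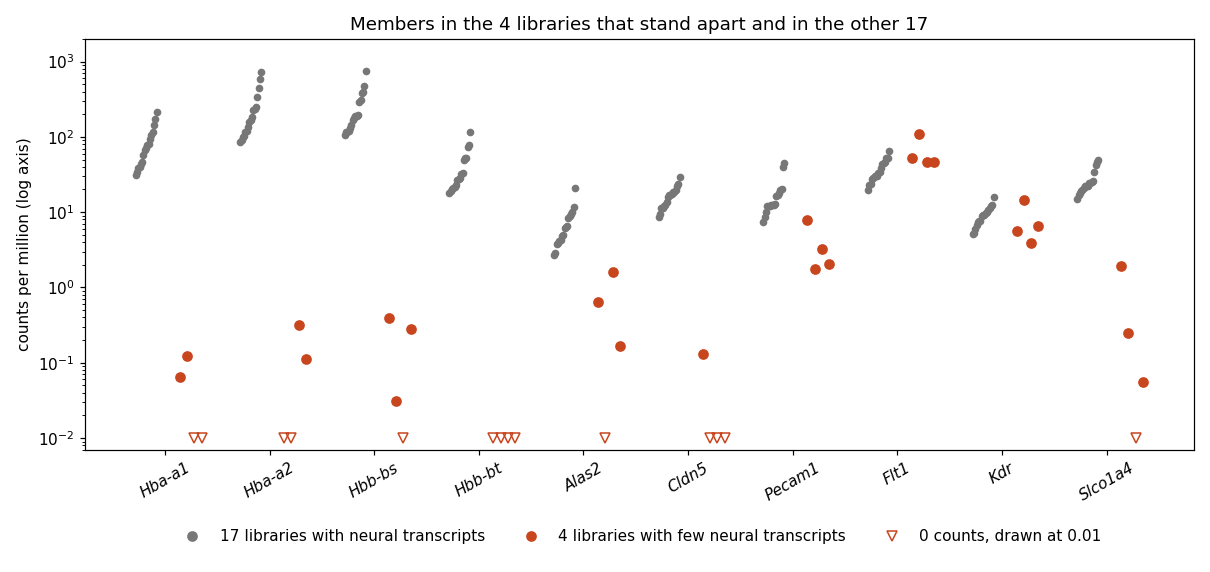
CPM of each member (log axis) in the 17 libraries (grey) and in the 4 libraries with few neural transcripts (red; replicate 3 of mutant ZT6 and all of mutant ZT0); open triangles mark 0 counts and are drawn at 0.01. Globins, Alas2, Cldn5 and Slco1a4 fall below all grey points in the red libraries, Flt1 lies within or above them, and Kdr overlaps them.

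Mutant against control at ZT0 can be computed only with these libraries, since all 3 mutant ZT0 libraries are among them, so genotype and tissue content cannot be told apart there. In the fit of all 22 libraries, 50.1% of 20763 genes were called, 20.9% higher and 29.2% lower in the libraries labelled mutant, with a median log2 fold change of -0.22. Among the 10 members 6 were lower and 1 was higher. Hba-a1 differed by -8.50 ± 1.72, Hbb-bs by -9.52 ± 1.77 and Hba-a2 by -11.91 ± 2.25 (SE, edgeR adjusted p = 0.000657, 0.000342 and 0.000392). From pooled counts, Hba-a1 was 524-fold lower (95% counting interval 224 to 1610) and Hbb-bt, with 0 counts, at least 507-fold lower when 3 counts over the group are taken as the floor. Cldn5 differed by -8.06 ± 1.45 (adjusted p = 0.00027) and Slco1a4 by -5.03 ± 1.09 (adjusted p = 0.00105). Flt1 was higher by 1.41 ± 0.49 (adjusted p = 0.0223), a call lost without control ZT0 replicate 1 or 3, without mutant ZT0 replicate 2 and with library totals in place of TMM factors (0.90, adjusted p = 0.0889). Alas2 (-3.05 ± 1.41, adjusted p = 0.0771), Pecam1 (-1.29 ± 0.72, adjusted p = 0.143) and Kdr (0.25 ± 0.45, adjusted p = 0.667) did not pass. From pooled counts, control over mutant was 22.2 for Alas2 (95% counting interval 13.3 to 39.9) and 4.11 for Pecam1 (3.53 to 4.81). For Kdr it was 0.877 (0.789 to 0.976). The spread in this fit also draws on the mutant ZT6 group. That group joins replicates 1 and 4 with replicate 3, which holds few neural transcripts, and replicate 2, which holds 7348 counts. Pecam1 was called lower without mutant ZT0 replicate 1 (-2.28) and with library totals (-1.82).

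The wider lists split in the same 4 libraries. Of 20 general endothelial genes 10 were lower and 4 higher. Adgrl4 (-10.93 ± 1.67), Sox17 (-9.19 ± 1.69), Robo4 (-8.70 ± 1.59) and Sox18 (-8.43 ± 1.77) were lower, and Adgrl4, Sox17 and Sox18 had 0 counts in all 4. Other genes of that list, named after their values were seen, lay above all 17 libraries in all 4. Eng was at 15.7 to 38.5 CPM against 3.36 to 14.8 CPM in the 17. Ly6c1 was at 64.6 to 353 CPM against 9.3 to 29.1 CPM, and Ctla2a at 18.9 to 404 CPM against 1.38 to 9.4 CPM. Of 18 blood-brain barrier genes 9 were lower and 6 higher, the thyroid hormone transporter Slco1c1 lowest (-11.99 ± 1.88, 0 counts in all 4) and the surface antigen Ly6a highest (6.5 ± 1.5, 630 to 1080 CPM against 3.56 to 19.4 CPM). Among 14 pericyte and smooth muscle genes 7 were higher, Acta2 (8.80 ± 1.96) and Tagln (8.20 ± 1.79) among them, and 4 were lower, including the pericyte genes Atp13a5 (-10.91 ± 1.42) and Higd1b (-8.32 ± 1.59). The VEGF and angiopoietin list had 7 of 10 genes higher and 0 lower, led by the ligands Vegfd (8.12 ± 1.77) and Vegfc (4.33 ± 0.90), the co-receptor Nrp1 (2.50 ± 0.51) and the lymphatic receptor Flt4 (2.09 ± 0.63). Among 9 meninges and fibroblast genes 6 were higher, with Col3a1 at 8.39 ± 2.27 and Col1a1 at 7.35 ± 2.05, and 9 of 9 myelin genes were lower. The part of these other cell types in the member values was not tested.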

How the data were processed

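Total RNA in Trizol was made into polyA TruSeq libraries and sequenced on an Illumina NovaSeq, per the labels' protocols. Reads were checked with FastQC, trimmed with Trimmomatic 0.38 and quantified with kallisto 0.44.0 on an EnsDb.Mmusculus.v79 index, and tximport summed transcripts to genes, per the labels' protocols. The deposited table holds estimated counts per gene, written by the authors as whole numbers and not normalised. Of 41461 lines, 5 that repeat an ID were dropped.

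Libraries with at least 1e+06 counts and a summed myelin list of at least 1000 CPM (17 of 22) were fitted together with edgeR 4.0.16 (R 4.3.3): TMM factors, filterByExpr (min.count 10, min.total.count 15), quasi-likelihood F tests, two-sided, Benjamini-Hochberg adjustment over all genes, calls at an adjusted p under 0.05. Mutant against control at ZT0 used all 22 libraries (20763 genes). Index set comparisons had group and index set in the model. Levels are CPM without TMM factors, and fold changes come from the fit. TMM factors ran from 0.871 to 1.12 in the 17 libraries. Counting intervals (95%) and floors (3 counts) cover counting error only.

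All members are named, and of each list at most 4 called genes per comparison, taken from those with the largest change. Some further list genes were named after their values were seen, as stated where they appear. The members and lists were chosen with earlier results of these data known. Coordinates and lengths are from GENCODE M21 (GRCm38), a later annotation than the index. Alternatives were DESeq2 1.42.0, RLE factors, library totals, no low-count filter, a 2-fold limit, all 22 libraries, index set as covariate and leaving out each library. Leaving out index set 3 and the libraries with pituitary transcripts was chosen after seeing the data. Fits were tested on simulated data.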

Additional observations from a re-analysis of the deposited data

Results flagged for a closer look

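Within the groups of 4 libraries, some members had 1 library far from the other 3 by Dixon's test of the gap over the range at the 95% level. Of 30 such groups tested, chance gives about 1 in 20. After SD, replicate 4 stood high for Hba-a2 in controls (593.5 CPM) and mutants (735.5 CPM), for Hbb-bs in controls (474.5 CPM) and mutants (749.6 CPM), for Hbb-bt in mutants (117.4 CPM) and for Pecam1 in controls (44.34 CPM) and mutants (39.93 CPM). Both libraries belong to index set 3. Slco1a4 stood high in control ZT6 replicate 3 (49.96 CPM), a set 2 library in which the globins were the lowest of their group.

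Mutant ZT6 replicate 2, left out of all fits but that of 22 libraries, held 4 Alas2 counts among 7348, which is 544 CPM (95% exact counting interval 148 to 1390), above the 21.1 CPM of the highest of the 17 libraries. It also held 6 counts of Hba-a2 (817 CPM) and 9 of Hbb-bs (1220 CPM, interval 560 to 2320, against at most 750 CPM). The other 7 members had 0 counts, for which the exact interval reaches 502 CPM each.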

How the results depend on the processing

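Between conditions the 10 members gave 0 calls under every alternative run, while counts over all genes, 0 with edgeR, were small but not always 0. DESeq2 called 18 genes for SD in controls, 16 for SD in mutants, 23 for ZT6 against ZT0, 15 and 1 for mutant against control at ZT6 and after SD, and 8 for the interaction. SD in controls had 1 call without the low-count filter, 1 without index set 3 and 2 without the libraries with pituitary transcripts. SD in mutants had 173 in the fit of all 22 libraries. Mutant against control had 1 at ZT6 without the pituitary libraries and 3 after SD with index set as covariate, and the interaction had 1 without the pituitary libraries. Leaving out single libraries gave 0 to 1 calls for SD in controls, 0 to 3 for SD in mutants, 0 to 1 for ZT6 against ZT0, 0 to 2 for mutant against control at ZT6, 0 to 0 for the same after SD and 0 to 2 for the interaction.

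Mutant against control at ZT0 ranged from 8693 to 9896 genes and 6 to 8 members over single libraries left out. Index set 1 against index set 2 called 992 genes over 2-fold and 2 without the pituitary libraries, with 0 members in both; single libraries left out gave 1928 to 5212 genes and 0 to 1 members. Index set 3 against index set 2 called 1463 genes over 2-fold and 2017 genes with 2 members without the pituitary libraries; single libraries left out gave 3066 to 6368 genes and 2 to 9 members. Fewer libraries enter such fits, and the cause was not tested further. Of 1520 member values under alternatives, 49 lost a call, 2 gained one and 0 reversed a called value, while 195 uncalled estimates changed sign. No paired analysis was possible because replicate numbers follow sample order and mark no shared animal. With 2 mutant ZT6 libraries, the intervals of single globins between genotypes at ZT6 reached 2.32 on the log2 scale, which limits what can be detected.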
